A study of Mus musculus with 19 samples.

Results

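Endothelial cells line the capillaries of skeletal muscle, and 10 genes that mark these cells or carry signals to and from them were followed in mouse hind-limb muscle. They were chosen by name: the junction genes Pecam1 and Cdh5, the vascular endothelial growth factor (VEGF) receptor genes Kdr and Flt1, the angiopoietin receptor genes Tek and Tie1, the ligand genes Vegfa, Vegfb and Angpt1, and the Frizzled receptor gene Fzd4. The choice was made with earlier results of these data known. All 10 were among the 14707 genes of the deposited table, and all 10 had a mean of at least 10, the level set for testing, which 13367 genes reached. RNA from gastrocnemius muscle of male mice, strain written C657Bl/6J, was sequenced in 19 libraries, so the study crosses age with diet. The aged obese group (n = 5) was 20 to 21 months old and ate a high-fat diet with 60% of its energy from fat. The aged lean group (n = 5) was of the same age and ate a control diet with 12% of its energy from fat. The young obese group (n = 5) was 6 months old on the high-fat diet, and the young lean group (n = 4) was 6 months old on the control diet. The series' design text instead names the tibialis anterior muscle, an age range for the aged mice that begins and ends later, and paired-end in place of single-end reads, and this conflict could not be settled here. The labels do not tie libraries to single animals, so the p-values below measure only the spread between libraries, which may be technical.

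VEGF-A, the product of Vegfa, is made by muscle fibres among other cells and acts on endothelial cells mainly through VEGF receptor 2, the product of Kdr. VEGF receptor 1, the product of Flt1, binds VEGF-A tightly while signalling weakly, so it also works as a trap for the ligand, and it is the receptor for VEGF-B. Angiopoietin-1, which comes from cells around the vessel, activates the receptor Tie2, encoded by Tek, and keeps vessels quiescent, with Tie1 as a partner receptor. Frizzled-4 is a Wnt receptor that also binds norrin and, together with the co-receptor Lrp5 and the tetraspanin Tspan12, is required for normal retinal vessels.

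RefSeq promoter entries (build GRCm38.p6) matched 7 of the 10 genes; Pecam1, Cdh5 and Angpt1 had none. The 250 bases before the start site are printed for Flt1 and Fzd4, whose levels differed most with age on the control diet, and for Kdr and Vegfa, the other receptor and the ligand of the VEGF pair. Capitals mark matches, on either strand, to TATAAA (the TATA box, held by 12.4% of all 32841 promoter windows of this length), TGACGTCA (the cAMP response element, 1.55%), AGGAAG (an ETS-type core, 29.5%), GGGCGG (the GC box, 32.7%) and ACGTG (the core of the hypoxia response element, 16.6%). None of these motifs contains another.
Flt1: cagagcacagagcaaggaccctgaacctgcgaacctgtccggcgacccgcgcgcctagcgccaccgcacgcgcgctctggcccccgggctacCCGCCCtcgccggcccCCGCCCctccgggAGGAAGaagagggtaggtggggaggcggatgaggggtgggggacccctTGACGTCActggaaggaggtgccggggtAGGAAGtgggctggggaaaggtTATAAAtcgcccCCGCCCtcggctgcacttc
Kdr: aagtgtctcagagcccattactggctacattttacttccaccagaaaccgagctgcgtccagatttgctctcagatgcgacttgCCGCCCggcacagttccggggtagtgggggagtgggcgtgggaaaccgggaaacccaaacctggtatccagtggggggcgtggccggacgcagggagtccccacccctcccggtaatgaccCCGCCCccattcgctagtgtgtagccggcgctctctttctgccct
Fzd4: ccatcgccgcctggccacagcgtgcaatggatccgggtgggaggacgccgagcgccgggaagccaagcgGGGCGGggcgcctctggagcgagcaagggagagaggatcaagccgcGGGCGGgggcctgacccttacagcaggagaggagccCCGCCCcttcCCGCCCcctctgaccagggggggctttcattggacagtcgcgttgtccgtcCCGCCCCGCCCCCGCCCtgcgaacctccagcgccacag
Vegfa: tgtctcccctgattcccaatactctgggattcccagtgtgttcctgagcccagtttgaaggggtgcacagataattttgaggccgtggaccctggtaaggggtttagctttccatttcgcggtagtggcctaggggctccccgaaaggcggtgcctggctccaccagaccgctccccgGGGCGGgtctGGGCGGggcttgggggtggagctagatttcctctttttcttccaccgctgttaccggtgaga
These windows lie at chr5:147726012-147726261 (minus strand, Flt1), chr5:75978456-75978705 (minus strand, Kdr), chr7:89404116-89404365 (plus strand, Fzd4) and chr17:46032378-46032627 (minus strand, the upstream of the Vegfa entries). The Flt1 window held a TATA box 31 bases before the start, a cAMP response element 81 bases before it, ETS-type cores at 129 and 53 bases, and GC boxes on the opposite strand at 158, 142 and 19 bases. The Kdr window held GC boxes at 166 and 45 bases and none of the other motifs, and the Vegfa window held GC boxes at 72 and 62 bases. The window of the downstream Vegfa entry (chr17:46025164-46025413, not printed) held a GC box at 158 bases and a hypoxia response core on the opposite strand at 211 bases, the one match to that core among the windows of the 7 genes. This window lies past the start of the upstream entry, so that match is not in sequence before the upstream start. The Fzd4 window held 7 GC boxes, some overlapping, and 72.8% of its bases were G or C, against a median of 52.4% over all windows. A match describes letters in these windows and is not evidence of a bound site.

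Values are the authors' normalised signal per gene. By estimate 1 read was worth 0.903 to 1.09 units, and the libraries held 15100000 to 17800000 reads. At that step only 85.2% to 86.3% of values up to 200 reads came out whole, under the 95% required, so both estimates are uncertain. Divided by the length of a gene's merged exons, the highest mean level over all 19 libraries was that of Vegfb at 1489 units per kb, followed by Vegfa at 867 and Cdh5 at 471 units per kb. Pecam1 followed at 235 and Tie1 at 129 units per kb. Flt1 at 109, Kdr at 107 and Tek at 101 units per kb lay close together, and their ranges over the libraries overlapped. Fzd4 at 85.7 and Angpt1 at 52.2 units per kb were lowest. Kdr had the largest spread of any member within a group, with a coefficient of variation of 44.8% in young lean libraries. Its value in young lean library 1 was 1348, which was 2.12 times the mean of the other young lean libraries, and in young obese library 3 it was 628, or 0.53 times the mean of that group's other libraries. Young lean library 1 was also high for Vegfa (4543, 1.67 times the others) and Vegfb (3172, 1.51 times the others), so calls on these genes that change without it are given below. It was picked for these values, so leaving it out lowers the young lean means and spread of these genes by construction. Calls over all genes also rose without it. They went from 1475 to 2695 for young obese and from 545 to 1270 for aged lean, each against young lean mice. For aged obese mice they went from 1206 to 1668 against young obese and from 746 to 1078 against young lean mice. For the diet difference in aged minus that in young mice they went from 398 to 1723.

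**Figure D1:**
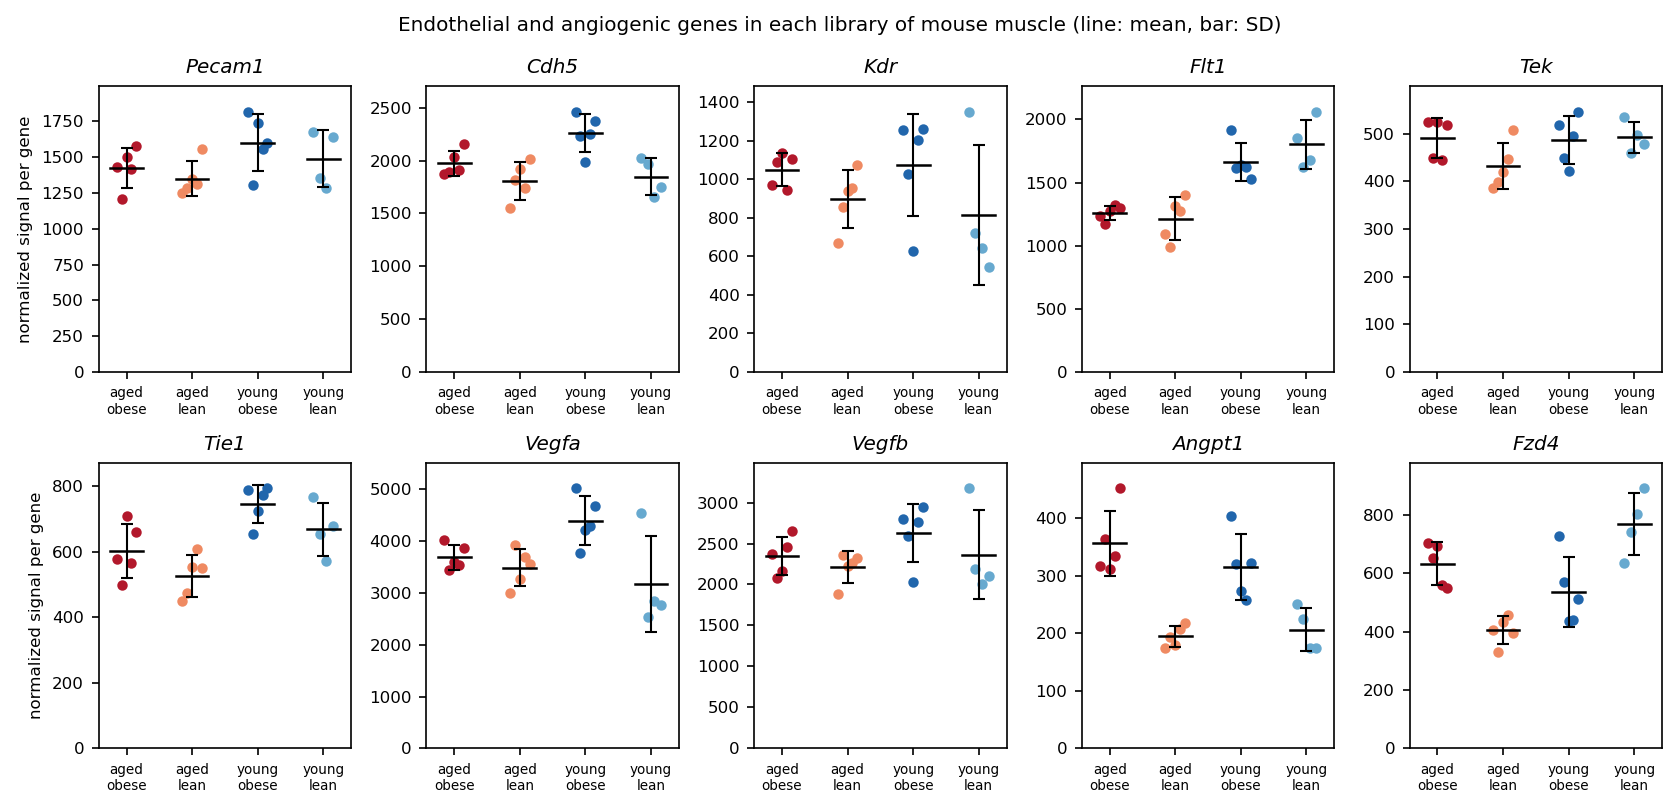
Normalised signal (units on the y axis) of the 10 genes in each library, by group from left to right aged obese, aged lean, young obese and young lean; points are libraries, lines the mean and bars the SD (n = 5, 5, 5 and 4). Flt1 points of both aged groups lie below those of both young groups, Angpt1 points of both obese groups lie above those of both lean groups, and the single high young lean point for Kdr is 1348.

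Flt1, the gene for the VEGF trap receptor, was lower in aged than in young muscle on both diets. It had 1235, 1172, 1271, 1321 and 1297 units in aged obese libraries and 1090, 990.3, 1314, 1272 and 1403 units in aged lean libraries. It had 1914, 1616, 1635, 1620 and 1524 units in young obese libraries and 1849, 1621, 1677 and 2059 units in young lean libraries. Every aged library was therefore below every young library. On the control diet Flt1 averaged 1214 ± 169 units in aged mice (SD, n = 5) and 1801 ± 197 units in young mice (SD, n = 4), a log2 fold change of -0.57 ± 0.10 (SE) with adjusted p = 0.00276 by limma. On the high-fat diet it averaged 1259 ± 58.4 units in aged and 1662 ± 147 units in young mice (SD, n = 5 each), a log2 fold change of -0.40 ± 0.09 (SE) with limma adjusted p = 0.0100. The difference between these age effects was 0.18 on the log2 scale (95% interval -0.10 to 0.45, limma adjusted p = 0.434), and Flt1 did not pass for diet at either age. On the high-fat diet the call was lost with a tendon marker score, a clock gene score or a slow fibre score as a covariate (adjusted p up to 0.4), while its log2 fold change stayed between -0.43 and -0.33 in all runs. In bulk muscle, fewer endothelial cells and less RNA per cell cannot be told apart.

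Kdr, the gene for the main signalling receptor of VEGF-A, passed the test in no comparison. It had 971.3, 1086, 1136, 941.9 and 1103 units in aged obese libraries and 666.4, 853.0, 940.0, 955.2 and 1071 units in aged lean libraries. It had 1253, 1024, 628.2, 1204 and 1258 units in young obese libraries and 1348, 720.8, 640.6 and 542.3 units in young lean libraries. Groups overlapped in every comparison. The difference of young obese from young lean muscle was 0.45 on the log2 scale (95% interval -0.01 to 0.91, limma adjusted p = 0.187). Without young lean library 1 it was 0.72 with limma adjusted p = 0.0115, and aged obese against young lean muscle then gave 0.73 with adjusted p = 0.0210. With library weights and all libraries kept, these differences were 0.75 and 0.64 (limma adjusted p = 0.00356 and 0.0131). Calls over all 13367 genes rose with those weights too, to 3421 and 1711.

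The ratio of Flt1 to Kdr, which does not depend on scaling between libraries, averaged 1.21 ± 0.130 in aged obese, 1.37 ± 0.173 in aged lean and 1.65 ± 0.551 in young obese libraries (SD, n = 5 each), against 2.51 ± 1.00 in young lean libraries (SD, n = 4). On the log2 scale it was 0.79 lower in aged lean than in young lean libraries (exact two-sided permutation p = 0.0476) and 0.40 lower in aged obese than in young obese libraries (exact p = 0.0476). Both had adjusted p = 0.0952 over the 20 tests of 4 ratios in 5 comparisons. The groups overlapped in both, and none of the 20 ratio tests passed after adjustment, although 10 had an unadjusted p below 0.05.

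Vegfa, the ligand gene, was higher in young obese than in young lean muscle. It had 5018, 3780, 4209, 4297 and 4674 units in young obese libraries and 4543, 2543, 2838 and 2763 units in young lean libraries. Young lean library 1 lay inside the young obese range, and the other young lean libraries lay below it. The means were 4396 ± 471 in young obese (SD, n = 5) and 3172 ± 923 units in young lean mice (SD, n = 4), a log2 fold change of 0.50 ± 0.13 (SE, limma adjusted p = 0.0196). The call was lost when young lean library 2, 3 or 4 was left out, with log2 fold changes down to 0.41 and adjusted p up to 0.0781. It was also lost with the tendon score, the clock score or the young libraries fitted alone, with log2 fold changes down to 0.24 and adjusted p up to 0.384.

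In aged muscle Vegfa had 4022, 3436, 3595, 3536 and 3864 units in aged obese libraries and 3001, 3922, 3268, 3695 and 3567 units in aged lean libraries. These ranges overlapped, with a log2 fold change of 0.08 ± 0.12 (SE, limma adjusted p = 0.848). The diet difference in aged minus that in young mice was -0.42 on the log2 scale with adjusted p = 0.171, and without young lean library 1 it was -0.61 with adjusted p = 0.00552. Without that library Vegfa was also higher in aged lean than in young lean muscle (log2 fold change 0.36, adjusted p = 0.0206), where all 19 libraries gave 0.17 with adjusted p = 0.475. Without it Vegfa also passed for aged obese against young obese mice (-0.25, adjusted p = 0.0487) and for aged obese against young lean mice (0.44, adjusted p = 0.00684), and its difference between young obese and young lean mice was 0.69. As that library was picked for its high values, these calls are no separate support for a difference.

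Vegfb, whose product binds VEGF receptor 1, passed in no comparison with all libraries. It averaged 2626 ± 353 units in young obese (SD, n = 5) and 2365 ± 543 units in young lean mice (SD, n = 4), a log2 difference of 0.16 with limma adjusted p = 0.407. Without young lean library 1 that difference was 0.31 and passed (adjusted p = 0.0441), as it did with library weights (0.35, adjusted p = 0.0159). The ratio of Vegfb to Vegfa averaged 0.637 in aged obese, 0.635 in aged lean and 0.600 in young obese libraries, against 0.756 in young lean libraries. Each of the first 3 groups lay wholly below the young lean libraries (exact two-sided permutation p = 0.0159, the smallest that 5 against 4 libraries allow), with adjusted p = 0.0529.

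Angpt1, the gene for the ligand that activates Tie2, rose on the high-fat diet at both ages. It had 317.9, 364.9, 312.4, 334.6 and 451.9 units in aged obese libraries and 174.1, 194.1, 179.6, 207.3 and 217.3 units in aged lean libraries. It had 404.3, 321.3, 273.5, 258.0 and 321.9 units in young obese libraries and 251.1, 225.3, 175.1 and 175.0 units in young lean libraries. At each age every obese library was above every lean library. The log2 fold change was 0.86 ± 0.13 (SE, limma adjusted p = 0.00876) in aged mice, the 4th lowest p of all 13367 genes, and 0.61 ± 0.14 (SE, adjusted p = 0.0115) in young mice. The diet difference in aged minus that in young mice was 0.25 (95% interval -0.15 to 0.65, adjusted p = 0.449).

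Slow fibre marker genes moved with diet in the aged mice beside Angpt1. The summed level of 8 such markers was 24300 to 70290 units in aged obese libraries and 11890 to 24710 units in aged lean libraries, 5 of the 8 rose, and none was at 0 in any library. With the mean of these markers as a covariate, the Angpt1 difference between aged obese and aged lean mice was 0.56 with limma adjusted p = 0.434. None of the 13367 genes was then called for diet in aged mice, against 39 without the covariate. The call in young mice was kept with that covariate and lost with a tendon marker score or a clock gene score as one, or with the young libraries fitted alone (adjusted p up to 0.467).

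The receptor genes for angiopoietins passed in no comparison. Tek averaged 491 ± 41.7 units in aged obese, 431 ± 48.2 in aged lean and 486 ± 50.5 in young obese libraries (SD, n = 5 each), against 492 ± 32.2 in young lean libraries (SD, n = 4). Its largest log2 difference was 0.19 between aged obese and aged lean mice (95% interval 0.01 to 0.37) in one direction and -0.19 between aged lean and young lean mice in the other (limma adjusted p = 0.417 and 0.234). The ratio of Angpt1 to Tek averaged 0.729 in aged obese against 0.452 in aged lean libraries, and 0.651 in young obese against 0.420 in young lean libraries, with no overlap at either age (exact two-sided permutation p = 0.00794 and 0.0159, the smallest each design allows; adjusted p = 0.0529 for both). Tie1 averaged 603 ± 82.4 units in aged obese and 747 ± 57.8 units in young obese mice (SD, n = 5 each), a log2 difference of -0.31 with adjusted p = 0.0608. On the control diet the aged lean and young lean means were 527 ± 64.3 (SD, n = 5) and 668 ± 81.0 units (SD, n = 4), a log2 difference of -0.34 with adjusted p = 0.0766. Without young lean library 1, young obese library 2, aged obese library 3 or aged obese library 5, the high-fat diet difference of Tie1 passed, with adjusted p of 0.0419, 0.0308, 0.0409 and 0.0498 in that order. With library weights it passed too (-0.34, limma adjusted p = 0.0169), as did Tie1 for young obese against young lean mice (0.30, limma adjusted p = 0.0474).

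Pecam1 and Cdh5, which encode junction proteins used to mark endothelial cells, differed little. Pecam1 averaged 1426 ± 139 units in aged obese, 1351 ± 121 in aged lean and 1602 ± 197 in young obese libraries (SD, n = 5 each), against 1490 ± 197 in young lean libraries (SD, n = 4). It passed in no comparison, and every 95% interval of its log2 differences between 2 groups lay between -0.37 and 0.32. Cdh5 had 2461, 2233, 1988, 2254 and 2373 units in young obese libraries and 2029, 1964, 1658 and 1747 units in young lean libraries. Young obese library 3 lay inside the young lean range and the other young obese libraries above it. The log2 fold change was 0.29 ± 0.08 (SE, limma adjusted p = 0.0303), and the call was lost when any of 5 single libraries was left out. In aged mice Cdh5 averaged 1974 ± 119 units in obese and 1810 ± 178 units in lean libraries (SD, n = 5 each), a log2 difference of 0.13 with adjusted p = 0.578.

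Fzd4, the norrin and Wnt receptor gene, moved in opposite directions with diet at the 2 ages. It had 704.8, 652.8, 693.5, 560.2 and 550.6 units in aged obese libraries and 407.1, 328.5, 431.7, 456.6 and 396.1 units in aged lean libraries, with no overlap. It had 727.5, 570.5, 437.0, 438.6 and 511.8 units in young obese libraries and 636.5, 742.7, 801.5 and 890.3 units in young lean libraries, where only young obese library 1 reached the young lean range. The log2 fold change of obese against lean mice was 0.65 ± 0.13 (SE, limma adjusted p = 0.0426) in aged and -0.53 ± 0.14 (SE, adjusted p = 0.0210) in young mice. The diet difference in aged minus that in young mice was 1.18 ± 0.19 (SE, adjusted p = 0.00625). Aged lean libraries were all below young lean libraries, with a log2 fold change of -0.92 ± 0.14 (SE, adjusted p = 0.00156), whereas on the high-fat diet aged and young mice differed by 0.25 (95% interval -0.02 to 0.53, adjusted p = 0.221). The call in aged mice was lost in 11 of the 19 runs that left out a library (adjusted p up to 0.118). It was also lost with the clock score as a covariate, where 26 of all 13367 genes were called for this comparison, against 39 without it. With the slow fibre score as a covariate the difference in aged mice was 0.83 with limma adjusted p = 0.420. The call in young mice was lost without young lean library 3, young lean library 4 or young obese library 4, with the tendon or the clock score, and with the young libraries fitted alone (log2 fold changes from -0.65 to -0.44 over all runs, adjusted p up to 0.497). The difference of the diet effects was lost with the tendon or the clock score (adjusted p up to 0.187), where 0 and 5 of all 13367 genes were called. It was at least 1.07 in every run. Clock scores crossed the groups too, and were lower where Fzd4 was higher. Their mean was -2.585 (SD 0.852) for young lean mice, rising to -1.461 (SD 0.635) with the high-fat diet. For aged mice it was -1.518 (SD 0.587) on the control diet and -2.477 (SD 0.467) on the high-fat diet. Library ranges overlapped at both ages. The cause of this shared pattern was not tested.

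Fzd4 was set beside the 9 other Frizzled receptor genes of the table, which were chosen after its values were seen. In young mice Fzd1 rose by 0.86 ± 0.21 and Fzd2 by 0.86 ± 0.24 on the high-fat diet (log2, SE, limma adjusted p = 0.0163 and 0.0298), and the other 7 did not pass. In aged mice none of the 9 passed, and their log2 differences between obese and lean mice ran between -0.32 and 0.76. None of the 9 passed for the difference of the diet effects, where Fzd2 came closest at -1.06 (adjusted p = 0.0778) and Fzd1 had -0.63 (unadjusted p = 0.0419).

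**Figure D2:**
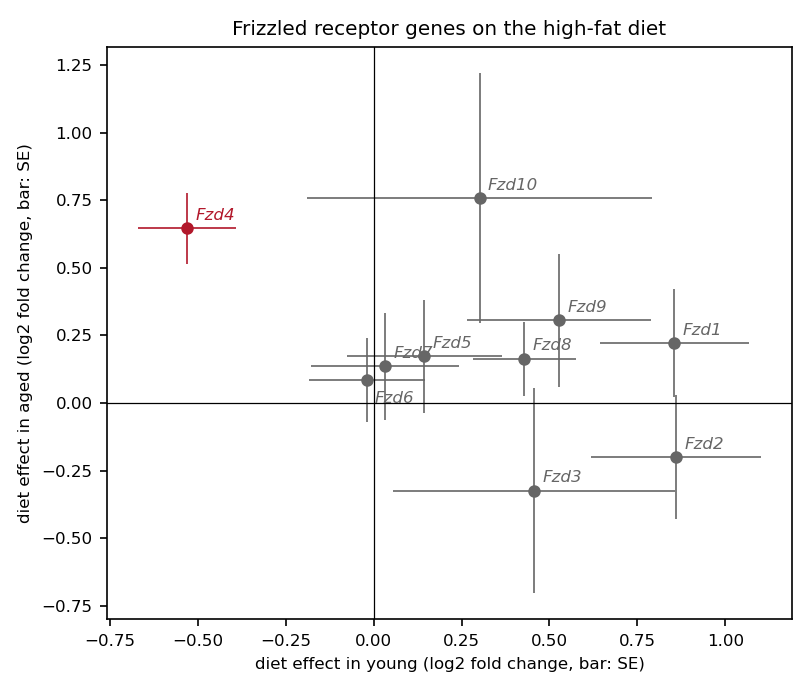
Log2 fold change of obese against lean mice for the Frizzled receptor genes, in young mice on the x axis and in aged mice on the y axis; bars are SE. Fzd4, in red, lies at -0.53 in young and 0.65 in aged mice, left of the other 9 genes.

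Across the comparisons, the number of the 10 genes that passed was set beside the share of all 13367 genes that did. The 10 were chosen with earlier results of these data known. A share above that of all genes can therefore come from the choice and is no test of the set. For aged obese against aged lean mice 2 of 10 passed, both higher (Angpt1 and Fzd4), and 0.292% of all genes were called (0.135% higher, 0.157% lower); 2 of the 10 and 3.68% of all genes had groups that did not overlap. For young obese against young lean mice 4 of 10 passed, with Cdh5, Vegfa and Angpt1 higher and Fzd4 lower, and 11.0% of all genes were called (5.70% higher, 5.33% lower); 1 of the 10 and 7.79% of all genes did not overlap. For aged obese against young obese mice 1 of 10 passed (Flt1, lower), and 9.02% of all genes were called (4.16% higher, 4.86% lower); 1 of the 10 and 8.66% of all genes did not overlap. Those are shares of the same order, so the count for the last comparison is no result about the 10 genes.

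For aged lean against young lean mice 2 of 10 passed, both lower (Flt1 and Fzd4), and 4.08% of all genes were called (2.09% higher, 1.99% lower); 2 of the 10 and 6.46% of all genes did not overlap. For aged obese against young lean mice 2 of 10 passed, Angpt1 higher by 0.79 and Flt1 lower, at a log2 fold change of -0.51, and 5.58% of all genes were called (3.25% higher, 2.33% lower); 2 of the 10 and 8.93% of all genes did not overlap. For the difference of the diet effects 1 of 10 passed (Fzd4, positive) and 2.98% of all genes were called (1.29% positive, 1.69% negative). Comparisons with a group in common share its libraries. The median log2 difference of the 10 genes was 0.16 between obese and lean mice in both aged and young mice, -0.16 between aged and young mice on the high-fat diet and -0.11 on the control diet. Over all genes these medians lay between -0.0027 and 0.0077. In the aged mice all 10 log2 differences between obese and lean groups were above 0, from 0.06 to 0.86, but only 2 passed. Of 25 further endothelial markers, 16 were above 0 there and 9 below. The 10 genes also varied together between libraries (median r over pairs 0.50), so their signs are not independent. The share of all genes above 0 was not computed.

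**Figure D3:**
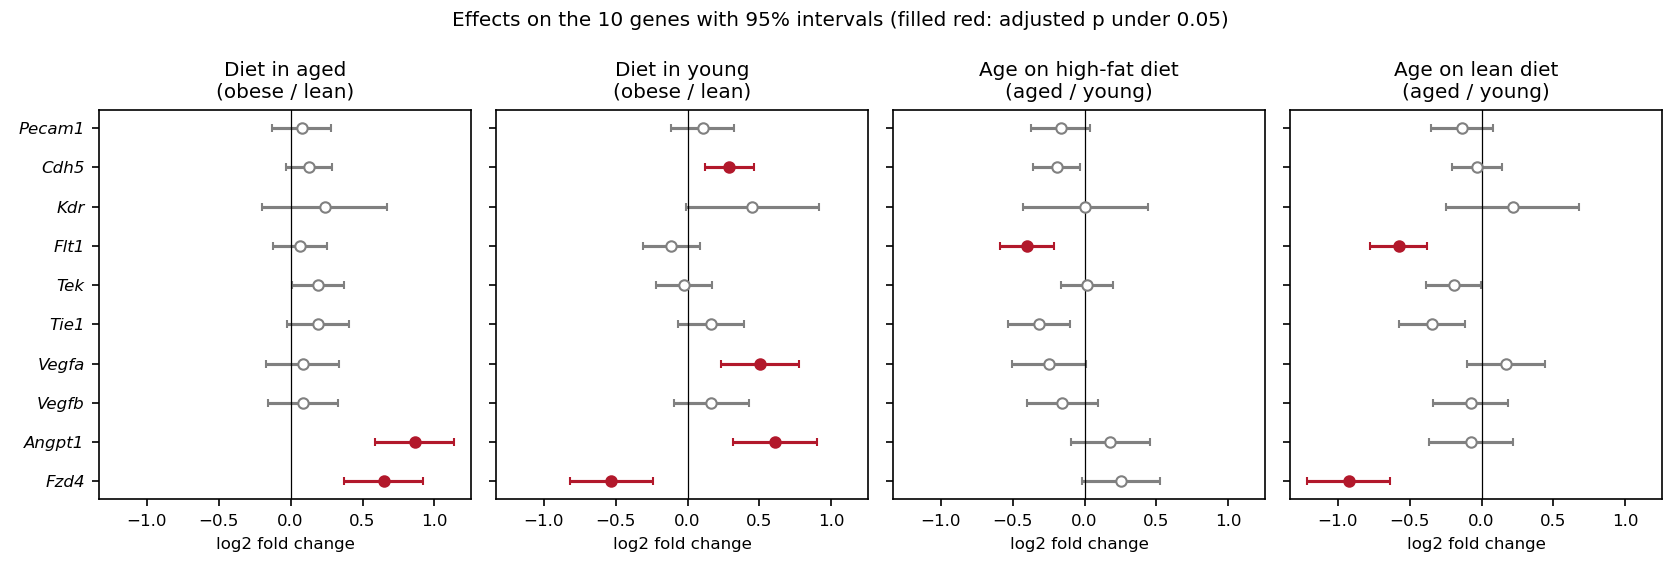
Log2 fold change (x axis) of each of the 10 genes in 4 comparisons, with 95% intervals from limma; filled red points passed at adjusted p under 0.05. Angpt1 and Fzd4 passed for diet in aged mice, Cdh5, Vegfa, Angpt1 and Fzd4 for diet in young mice, Flt1 for age on the high-fat diet, and Flt1 and Fzd4 for age on the control diet.

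Of 25 further endothelial markers, all tested, none passed for obese against lean mice in the aged group by limma, although 7 had an unadjusted p below 0.05. In young mice 4 of 25 rose on the high-fat diet, namely Eng (0.47), which encodes the co-receptor endoglin, Rasip1 (0.45), Cd34 (0.51) and Gpihbp1 (0.50), whose product holds lipoprotein lipase on capillaries (log2 fold changes), where 5.70% of all genes rose. On the high-fat diet 3 of 25 fell with age, Rasip1 (-0.32), Gpihbp1 (-0.49) and the sphingosine-1-phosphate receptor gene S1pr1 (-0.80), where 4.86% of all genes fell. On the control diet 1 of 25 fell with age, Ptprb (-0.37), which encodes a phosphatase acting on Tie2, where 1.99% of all genes fell. For aged obese against young lean mice none of the 25 passed, with 1 at an unadjusted p below 0.05. The median log2 difference of the 25 was 0.09 for diet in aged and 0.20 for diet in young mice, -0.25 for age on the high-fat diet and -0.09 for age on the control diet.

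Of 25 further VEGF, angiopoietin, Notch and norrin pathway genes, 24 were in the table and 22 were tested. For obese against lean mice none passed in the aged group, with 5 at an unadjusted p below 0.05, and 5 rose in the young group, where 5.70% of all genes did. These were Apln (1.57), the gene for the peptide apelin, Adgra2 (0.69) and Reck (0.44), whose products act together as a Wnt7 co-receptor complex, Lrp5 (0.26) and Notch4 (0.26), as log2 fold changes. Notch4, an endothelial Notch receptor gene, fell with age on both diets, by 0.47 on the log2 scale on the high-fat diet and by 0.45 on the control diet. On the high-fat diet Reck (-0.48) and the receptor gene Acvrl1 (-0.39) also fell with age and Vegfd (0.79) rose. There 3 of 22 fell and 1 rose, where 4.86% of all genes fell and 4.16% rose. On the control diet 1 of 22 fell with age, where 1.99% of all genes did. Apln was also higher in aged obese than in young lean muscle (1.70), where Lrp6 was lower (-0.28). Of all genes 3.25% were higher and 2.33% lower in that comparison. Reck was the pathway gene that passed for the difference of the diet effects (-0.72), where 1.69% of all genes passed with a negative difference. The norrin receptor partners Lrp5 and Tspan12 differed between aged lean and young lean mice by 0.03 and -0.05 (limma adjusted p = 0.894 and 0.921).

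Among 16 genes of hypoxia and PGC-1 alpha signalling, a list that holds regulators of Vegfa and other hypoxia targets, the nuclear receptor gene Esrra rose (log2 fold change 0.52) and the hypoxia target Bnip3 fell (-0.45) in young obese against young lean mice. Of all genes 5.70% rose and 5.33% fell there, shares of the same order as 1 of 16, so these counts are no result about the list. None of the 16 passed in the other 5 comparisons, where 1 or 2 had an unadjusted p below 0.05 by limma. Of 10 pericyte and smooth muscle markers, Abcc9 fell in young obese mice (-0.29) and Pdgfrb fell with age on the high-fat diet (-0.46). Of all genes 5.33% and 4.86% fell in these comparisons. No lymphatic or blood marker passed in any comparison, with up to 3 of 6 lymphatic and 0 of 5 blood markers at an unadjusted p below 0.05. Of the 8 macrophage markers, Adgre1 passed for the difference of the diet effects (-2.39), and of the 6 adipocyte markers, Lep was higher in aged obese than in young lean mice (2.73, log2). Of all genes 1.69% passed with a negative difference in the first case and 3.25% were higher in the second.

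Markers of other tissues moved with the same contrasts. The summed level of 6 tendon markers was 351 to 1323 units in aged obese and 360 to 1139 units in aged lean libraries, and 1869 to 4849 units in young obese against 518 to 1055 units in young lean libraries. Of these, 4 of 6 rose in young obese mice and 5 of 6 were lower in aged obese than in young obese mice; none was at 0 in any library. Of 8 fibro-adipogenic progenitor markers, 4 rose in young obese mice and 4 fell with age on the high-fat diet. Of all genes, 5.70% rose in young obese mice and 4.86% fell with age on the high-fat diet. With the tendon score as a covariate, none of the 10 genes passed for diet in young mice (2 at an unadjusted p below 0.05) and none for age on the high-fat diet (1 at an unadjusted p below 0.05). Over all 13367 genes, 0 and 12 were then called in these comparisons, against 1475 and 1206 without it, so the loss is not particular to the 10 genes. The log2 fold change of Flt1 on the high-fat diet was then -0.43 with limma adjusted p = 0.4, whereas its fall on the control diet, and that of Fzd4, passed in all 32 alternative runs.

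**Figure D4:**
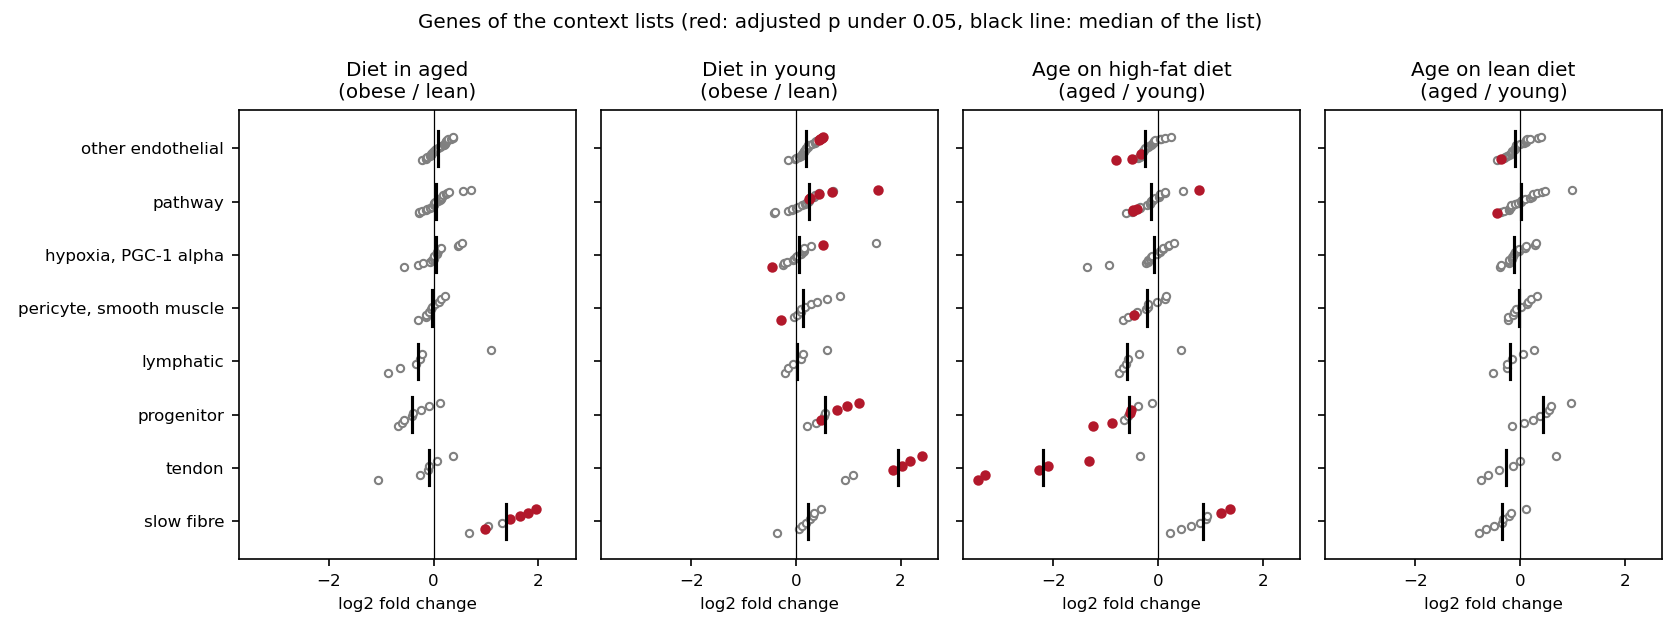
Log2 fold change (x axis) of the genes of 8 marker and pathway lists in 4 comparisons; points are genes, filled red at adjusted p under 0.05, and black lines are list medians. Tendon and progenitor markers lie right of 0 for diet in young and left of 0 for age on the high-fat diet, and 5 of the 8 slow fibre markers are red for diet in aged mice.

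From library to library inside groups, after group means were removed, the endothelial receptor and junction genes tended to vary together, some pairs only weakly. Over the 15 pairs of Pecam1, Cdh5, Kdr, Flt1, Tek and Tie1 the median Pearson r of log2 values was 0.54 (0.19 to 0.79, 19 libraries). With Pecam1, Tie1 had r = 0.72 and Spearman rho = 0.65 (permutation within groups, adjusted p over 9 relations 0.0063 and 0.0207). Flt1 had r = 0.65 and rho = 0.71 with Pecam1 (permutation, adjusted p = 0.0210 and 0.0181). Without aged obese library 2 and young obese library 2, which were farthest from the median of Pecam1, Tie1 had r = 0.59 and rho = 0.63, with r no longer past the threshold (permutation, adjusted p = 0.157), and Flt1 had r = 0.73 and rho = 0.80 (adjusted p of r 0.0475). The other 7 genes did not pass by r. By rho, Tek (0.60) and Vegfa (0.58) also passed, both with a permutation adjusted p of 0.0347, and Fzd4 had r = -0.03. Libraries of this kind share scaling and tissue makeup, which these correlations also carry.

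**Figure D5:**
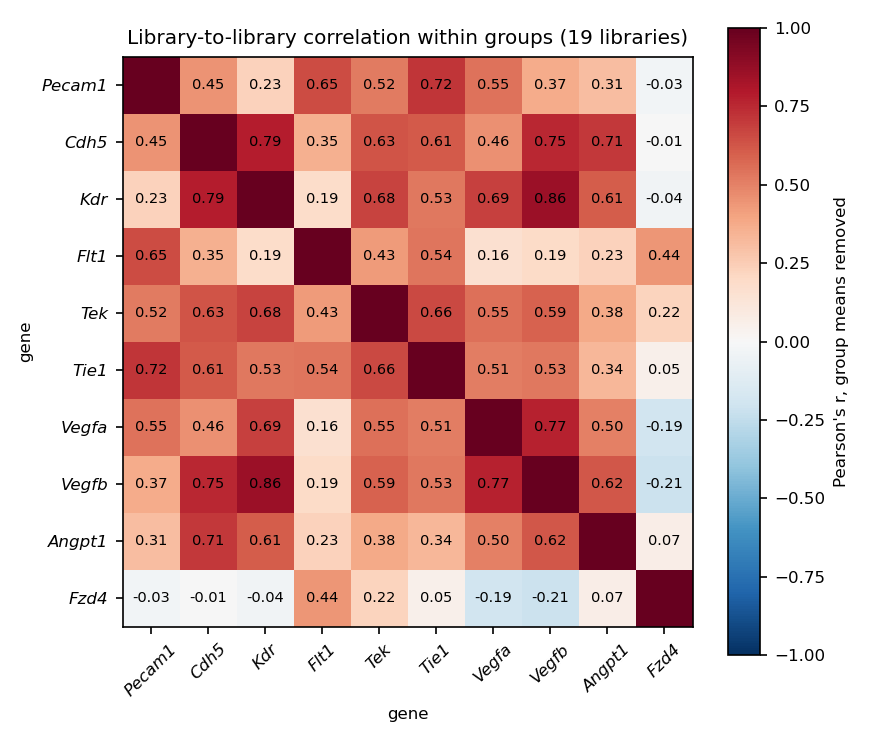
Pearson's r (colour and number) between the log2 values of each pair of the 10 genes over 19 libraries with group means removed. Kdr and Vegfb had the highest r, 0.86, and the Fzd4 row is close to 0 or below for most genes.

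By the same measure, the 10 genes most like the 6 receptor and junction genes were sought among 10529 other genes with a mean of at least 50. They were Cox6b1 (mean r 0.69), Uqcrfs1 (0.68), Got2 (0.68), Ndufa10 (0.68), Atp5g1 (0.67), Atp5j2 (0.67), Uqcrc2 (0.67), Cox4i1 (0.67), Epas1 (0.67) and Atp5l (0.66), over 19 libraries, where the median of this mean r over all candidates was -0.028. These values are a description and were not tested.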

How the data were processed

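Messenger RNA of 19 mouse muscle libraries was sequenced single-end per the labels' protocols (the design text says paired-end). The deposited table holds a normalised signal per gene, made by the authors; per the submitters' processing notes STAR 2.78a, DESeq2, Partek and build mm39 were used, and no source used here names the counting program or the annotation. Steps of 1 read (0.903 to 1.09 units) gave whole reads within 0.02 for 85.2% to 86.3% of values up to 200 reads, under the 95% required, so no count test was run and depth (15100000 to 17800000 reads) is an estimate. log2(value + 1) of 13367 genes with a mean of at least 10 was tested with limma 3.58.1 (R 4.3.3), with 1 mean per group, 15 residual and 4.37 prior degrees of freedom, and Benjamini-Hochberg adjusted p under 0.05; fold changes on this scale understate those of low genes. The test was tried on simulated data. Covariates were the mean log2 value of 6 tendon or 8 slow fibre markers, and that of 3 minus that of 6 clock genes. Ratios and correlations used permutation (Python 3.11.15, scipy 1.17.1; 100000 resamples for correlations). All 10 genes were tested in each comparison. Genes that passed are named for the context lists other than the tendon, progenitor, slow fibre and fast fibre markers. For the tendon, progenitor and slow fibre markers only counts are given, and only for some comparisons. Of the fast fibre markers, Pvalb alone passed, higher in young obese than in young lean mice (log2 fold change 0.48). The genes and lists were chosen with earlier results of these data known. Library numbers do not pair libraries. Exon lengths are from GENCODE M21 and promoters from GRCm38.p6, another build than the authors'. Alternatives changed the pseudocount, filter, scaling, library weights, covariates and libraries included.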

Additional observations from a re-analysis of the deposited data

Results flagged for a closer look

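Vegfb in aged lean library 1 was 1878 units, against 2228 to 2365 units in the other 4 aged lean libraries; on the log2 scale its gap to the nearest of them was 0.742 of the group's range, above the critical value of 0.71. It was the 1 of 40 combinations of gene and group to stand apart in this way, and chance gives about 1 in 20.

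The diet difference of Fzd4 in aged mice minus that in young mice was 1.18 on the log2 scale (limma adjusted p = 0.00625): obese was above lean in aged mice and below it in young mice. The clock score means crossed in the opposite sense, and the call was lost with that score as a covariate.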

How the results depend on the processing

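Pseudocounts of 0.5 and 5, no filter, a mean of at least 50, equal totals and quantile scaling gave the same calls among the 10 genes in every comparison. With library weights the genes that passed numbered 7 for diet in young mice, 4 for age on the high-fat diet, 4 for aged obese against young lean and 2 for the difference of the diet effects, where 3421, 2840, 1711 and 2494 of all 13367 genes passed in that order. With the tendon score as a covariate these were 0 for diet in young mice, 0 for age on the high-fat diet and 0 for the difference of the diet effects (2, 1 and 2 at an unadjusted p below 0.05 by limma; 0, 12 and 0 of all genes passed). With the clock score they were 0, 0 and 0 (2, 2 and 2 unadjusted; 137, 306 and 5 of all genes), and 1 for diet in aged mice (26 of all genes). With the slow fibre score, chosen after seeing the data, 0 passed for diet in aged mice and 0 for aged obese against young lean (2 and 2 unadjusted; 0 and 144 of all genes), and 2 for the difference of the diet effects (800 of all genes). With the young groups fitted alone 0 passed for diet in young mice (4 unadjusted; 182 of all genes). In the runs just listed, counts over all genes moved in the same direction as those of the 10. This did not hold everywhere. For age on the control diet 2 of the 10 passed with library weights and with the clock score, as in the main run. Over all genes 1565 and 206 then passed, against 545. Without young lean 1 and young obese 2, 6 passed for diet in young mice, 3 for age on the control diet, 3 for age on the high-fat diet, 4 for aged obese against young lean and 2 for the difference of the diet effects. Over all 13387 genes then tested, 3396, 1490, 2525, 1220 and 2694 passed in that order. Without young lean 3 and young obese 3, 1 passed for diet in young mice, where 521 of all 13364 genes did. Leaving out 1 library gave 1 to 6 for diet in young mice, 1 to 2 for diet in aged mice, 2 to 3 for age on the control diet, 1 to 3 for age on the high-fat diet, 2 to 4 for aged obese against young lean, 1 to 2 for the difference of the diet effects, 0 ratios, and 1 to 6 genes related to Pecam1 (6 without young obese library 3, 1 without aged obese library 2). Over all genes these runs called 668 to 2695 for diet in young and 6 to 70 for diet in aged mice. For age they called 283 to 1270 on the control and 723 to 1891 on the high-fat diet. They called 436 to 1078 for aged obese against young lean and 112 to 1723 for the difference of the diet effects. Equal totals gave 5 genes related to Pecam1, and 1 without the 2 libraries farthest from its median, against 2. The causes were not tested. Of the 48 results that did not pass, 88 of 1527 alternative values changed sign without passing, 30 passed and 0 reversed a call. No paired analysis was possible because the library numbers carry no pairing. Groups of 4 or 5 libraries limit small differences, and depth does not limit the 10 genes, whose lowest value was 174 units.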
